A study of Homo sapiens with 3 samples.

Results

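The genes of prostaglandin E2 synthesis, removal and reception were examined in 3 cultured human hepatocellular carcinoma lines, with 1 mRNA library per line. The members were the 10 genes PLA2G4A, PTGS1, PTGS2, PTGES, PTGES2, PTGES3, SLCO2A1, HPGD, PTGER2 and PTGER4, taken by gene symbol, of which 9 were among the 16149 genes listed in any library. PTGER2 was listed in none, and 7 of the 10 had a mean level of at least 1 RPKM over the 3 libraries, as did 11370 genes in all. RPKM is the number of reads of a gene divided by its length and by the reads of the library. The labels give all 3 lines as HCCLM3, grown in DMEM with no treatment named, and the study's methods name the parent as HCCLM3-R, which carries a red fluorescent protein. The parent is labelled with a low metastasis ability, although the methods call HCCLM3-R highly metastatic. Subclone 1 is labelled as more metastatic and lung-specific, and subclone 2 as metastatic to lung and celiac lymph node. According to the methods, subclones were grown by limiting dilution from lung or lymph node metastases of HCCLM3-R xenografts in nude mice, so that each subclone is 1 clone. Neither source says which clones were sequenced.

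Prostaglandin E2 is a lipid signal made from arachidonic acid. Cytosolic phospholipase A2 frees the acid from membranes, the cyclooxygenases PTGS1 and PTGS2 turn it into prostaglandin H2, and the prostaglandin E synthases finish the product. SLCO2A1 carries the product back into cells, where HPGD oxidises it to an inactive form, and the receptors encoded by PTGER2 and PTGER4 raise cyclic AMP in cells that bind it. In hepatocellular carcinoma the pathway is best known through PTGS2, the inducible cyclooxygenase, also called COX2.

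From the RPKM values themselves, library totals of 4488825 (parent), 4609696 (subclone 1) and 4725150 reads (subclone 2) were recovered. All intervals below are exact 95% intervals on these reads. They cover counting error only, and with 1 library per line no difference between lines was tested. Only genes with a mean of at least 1 RPKM were assessed. A ratio of 2-fold or more in favour of subclone 1 over the parent was seen for 4.9% of them, and in favour of the parent for 1.82%. For subclone 2 these shares were 5.33% and 2.16%. Dividing each library by ACTB shifted the median log2 ratio of all genes in subclone 1 over the parent from 0.0043 to -0.13, and the share of higher genes among those past 2-fold from 72.9% to 57.8%. Between the subclones the same division moved that share from 50.5% to 63.9%. Both subclones were compared with the same parent library, so their ratios share its error.

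The study's own primers for COX2, which fix what its PCR of this gene measured, are shown first. COX2 is on the study's primer list for the candidate genes that its PCR detected. The study picked genes more than 1.5-fold higher in most monoclonal lines than in their parental cells, and COX2 was not among those picked. Its PCR values for COX2 are not given in the sources used here. Both matched the 4514-base PTGS2 transcript of GENCODE 29 without mismatch, and no other gene held either primer. The forward primer lies in exon 2 and the reverse primer in exon 3, both in the coding sequence, and the product has 157 bases.
COX2-F: cgaggtgtatgtatgagtgt
COX2-R: agtgggtaagtatgtagtgc
On GRCh38 the forward primer is at chr1:186679387-186679406 and the reverse primer at chr1:186679130-186679149. These positions are not those of hg19, the build named in the submitters' processing notes.

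The 250 bases before the RefSeq start of PTGS2 and of PTGES (GRCh38.p14, 5′ to 3′ on the gene's strand) are shown because both genes are inducible, while their mRNA differed unequally between these lines. Capitals mark letters that matched 1 of 5 motifs, which were searched on both strands. PTGS2 is at chr1:186680424-186680673 on the minus strand, and PTGES at chr9:129753043-129753292 on the minus strand.
PTGS2: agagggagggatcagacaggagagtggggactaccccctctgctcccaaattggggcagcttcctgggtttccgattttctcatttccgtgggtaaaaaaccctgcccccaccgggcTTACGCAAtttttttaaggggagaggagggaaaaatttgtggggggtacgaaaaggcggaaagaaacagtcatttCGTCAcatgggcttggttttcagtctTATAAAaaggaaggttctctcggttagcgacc
PTGES: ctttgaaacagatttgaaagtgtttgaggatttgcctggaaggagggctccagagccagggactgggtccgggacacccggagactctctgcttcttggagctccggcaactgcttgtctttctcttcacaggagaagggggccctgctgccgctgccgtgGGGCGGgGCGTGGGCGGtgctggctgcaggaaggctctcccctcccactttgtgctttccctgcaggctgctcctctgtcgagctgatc
In PTGS2 the TATA box letters TATAAA begin 32 bases before the start, the core letters CGTCA of a cyclic AMP response element begin 58 bases before it, and a C/EBP site (TTNCGNAA, here TTACGCAA, which reads the same way with N on either strand) begins 133 bases before it. The PTGES window held the EGR1 site GCGTGGGCG, which begins 82 bases before the start, and 2 GC boxes (GGGCGG), the nearer of which overlaps the EGR1 site. Among 35116 promoter windows of the same length, TATAAA was held by 10.7%, CGTCA by 21.2%, TTNCGNAA by 2.18%, GCGTGGGCG by 0.72% and GGGCGG by 42.6%. The promoter table held 9 of the 10 members, without SLCO2A1. Most of these letters were not particular to the 2 windows shown. GCGTGGGCG was also in a window of PTGES2, where it begins 147 bases before the start, and CGTCA in windows of PTGES3, PTGER2 and HPGD. PTGS1 held TATAAA on the opposite strand, and GGGCGG was in windows of PTGS1, PTGES2, PTGES3, PTGER2, PTGER4 and HPGD.

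Among the enzymes, PTGES and PTGS1 were more than 2-fold higher in both subclones than in the parent, PTGS2 and PTGES2 were less than 2-fold higher, and HPGD was lower by less than 2-fold. PTGES3 and PLA2G4A lay slightly below the parent. The receptors and the uptake carrier did not exceed 1 read in any library. In RNA from whole cultures, fewer cells that express a gene and less RNA per cell cannot be told apart. Of the 7 assessed members, 2 were at least 2-fold higher in subclone 1 (4.9% of assessed genes) and 2 in subclone 2 (5.33%), and 0 were at least 2-fold lower in either (1.82% and 2.16%). PTGS1 met the minimum level only through the subclones, so that the filter itself favoured a difference there, and with PTGS1 left out 1 member was past 2-fold in each subclone. Between the subclones 0 members passed 2-fold (1.42% of genes higher and 1.39% lower in subclone 2) and 0 passed 1.5-fold (4.75% and 4.11%). At 1.5-fold, 2 members were higher and 1 lower in subclone 1 (11.6% and 7.46% of assessed genes), and 3 were higher and 1 lower in subclone 2 (12.7% and 7.3%). The 7 members had a median log2 ratio over the parent of 0.27 (subclone 1) and 0.46 (subclone 2), beside 0.0043 and 0.037 for all assessed genes. Without PTGS1 the member medians were 0.013 and 0.14.

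**Figure D1:**
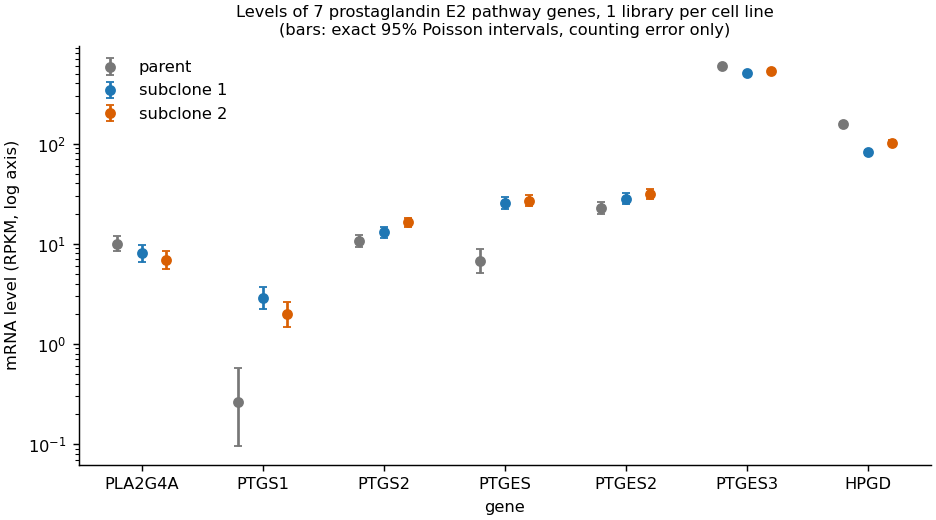
mRNA level in RPKM, on a log axis, of the 7 members with a mean of at least 1 RPKM in the parent, subclone 1 and subclone 2, as points with exact 95% Poisson intervals. PTGES goes from 6.73 RPKM in the parent to 25.7 and 27.0 RPKM in the subclones, while HPGD goes from 155.5 to 82.0 and 102.1 RPKM.

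PLA2G4A encodes the cytosolic phospholipase A2 that opens the pathway. Its level was 10.002 RPKM in the parent (132 reads), 8.04 RPKM in subclone 1 (109 reads) and 6.91 RPKM in subclone 2 (96 reads). The parent was highest, and in RPKM as given only subclone 2 was separated from it beyond counting error. The fold over the parent was 0.804 in subclone 1 (0.618 to 1.04) and 0.691 in subclone 2 (0.526 to 0.905). Divided by ACTB, the log2 ratio of subclone 1 went from -0.31 to -0.44, so this contrast between the subclones depends on the scaling.

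PTGS2, which makes prostaglandin H2 and is induced by growth factors and cytokines, is Entrez gene 5743. GENCODE 29 places its 10 exons between 186671791 and 186680427 of chromosome 1, minus strand (GRCh38, as for the genes below). Its level was 10.7 RPKM in the parent (217 reads, interval 9.35 to 12.3), 13.0 RPKM in subclone 1 (270 reads, interval 11.5 to 14.6) and 16.3 RPKM in subclone 2 (348 reads, interval 14.7 to 18.2). In these values the order was parent, subclone 1, subclone 2. The fold over the parent was 1.21 in subclone 1 (1.01 to 1.46) and 1.52 in subclone 2 (1.28 to 1.81). These ratios stood at percentiles 74.1 and 87.8 of the assessed genes, so that many genes differed as much. The interval of subclone 1 barely excludes 1. Divided by ACTB, the log2 ratio of subclone 1 over the parent went from 0.27 to 0.14. Subclone 1 stayed above the parent, but whether the difference exceeds counting error depends on the scaling. Subclone 2 exceeded subclone 1 by 1.26-fold (1.07 to 1.48).

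PTGS1, the cyclooxygenase that most tissues make without induction, was much rarer than PTGS2 in every line. It is Entrez gene 5742, at 122370530 to 122395703 of chromosome 9, plus strand. Its level was 0.262 RPKM in the parent (6 reads, interval 0.0963 to 0.571), 2.90 RPKM in subclone 1 (68 reads, interval 2.25 to 3.67) and 1.99 RPKM in subclone 2 (48 reads, interval 1.47 to 2.64). The parent was below both subclones, and its interval did not reach theirs. The fold over the parent was 11.0 in subclone 1 (4.82 to 31.1) and 7.60 in subclone 2 (3.25 to 21.7), with log2 ratios of 3.05 and 2.53 at percentiles 99.6 and 99.2. The 6 reads of the parent leave these folds wide. With a pseudocount of 1 RPKM in place of 0.1 the log2 ratios were 1.63 and 1.25. The subclones could not be told apart, since their fold of 0.689 had an interval from 0.466 to 1.01.

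PTGES encodes the membrane-bound prostaglandin E synthase that is induced together with PTGS2 in inflammation. It is Entrez gene 9536, with 3 exons between 129738331 and 129753047 of chromosome 9, minus strand. Its level was 6.73 RPKM in the parent (54 reads, interval 5.06 to 8.78), 25.7 RPKM in subclone 1 (212 reads, interval 22.4 to 29.4) and 27.0 RPKM in subclone 2 (228 reads, interval 23.6 to 30.7). The subclones stood close together and well above the parent. The fold over the parent was 3.82 in subclone 1 (2.82 to 5.25) and 4.01 in subclone 2 (2.97 to 5.50), at percentiles 98.7 and 98.7 of the assessed genes. Between the subclones the fold was 1.05 (0.866 to 1.27).

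The other prostaglandin E synthases differed less. PTGES2, a second membrane-associated synthase, had 22.6 RPKM in the parent (215 reads), 28.2 RPKM in subclone 1 (276 reads) and 31.1 RPKM in subclone 2 (312 reads). Its folds over the parent were 1.25 (1.04 to 1.501) and 1.38 (1.16 to 1.65). Divided by ACTB, its log2 ratio in subclone 1 went from 0.32 to 0.19. Whether that difference exceeds counting error therefore depends on the scaling, as for PTGS2. PTGES3, the cytosolic synthase that is also the HSP90 co-chaperone p23, had 596.3 RPKM in the parent (5171 reads), 501.8 RPKM in subclone 1 (4469 reads) and 525.4 RPKM in subclone 2 (4796 reads). It was the most abundant member and stood at percentile 99.4 of all listed genes by mean level. Its folds over the parent were 0.842 (0.808 to 0.876) and 0.881 (0.847 to 0.917), small ratios whose intervals are narrow because of the many reads. GENCODE names 5 pseudogenes of PTGES3, of which 0 were listed, and how shared reads were assigned is not given in the sources used here.

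**Figure D2:**
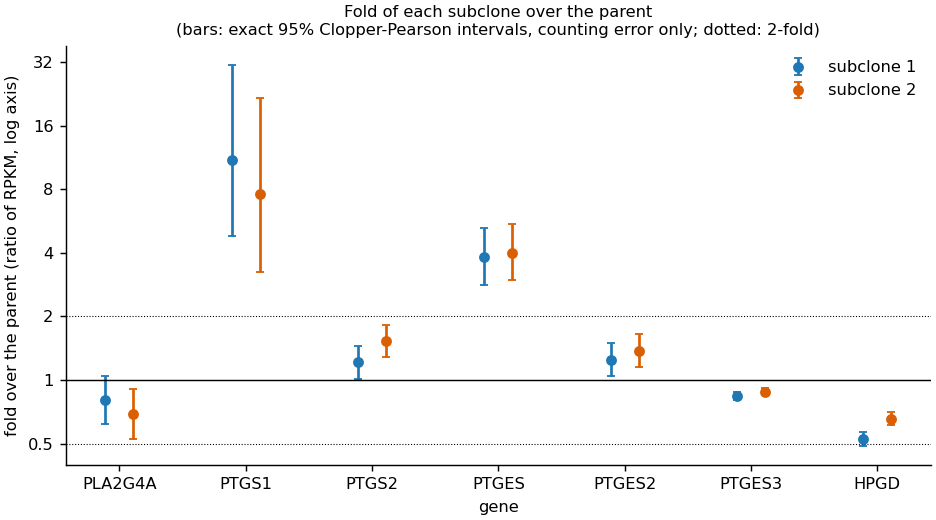
Fold over the parent in subclone 1 and subclone 2, as a ratio of RPKM on a log axis, for the same 7 members, with exact 95% Clopper-Pearson intervals and dotted lines at 2-fold. PTGS1 (11.0 and 7.60) and PTGES (3.82 and 4.01) lie above the upper line in both subclones, and HPGD (0.528 and 0.656) lies between the lines below 1.

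HPGD, which inactivates prostaglandin E2, was the second most abundant member. It is Entrez gene 3248, at 174490177 to 174523154 of chromosome 4, minus strand. Its level was 155.5 RPKM in the parent (1945 reads, interval 148.6 to 162.5), 82.0 RPKM in subclone 1 (1054 reads, interval 77.2 to 87.1) and 102.1 RPKM in subclone 2 (1344 reads, interval 96.7 to 107.7). The 3 lines were separated from each other beyond counting error, with the parent highest and subclone 1 lowest. The fold over the parent was 0.528 in subclone 1 (0.489 to 0.569) and 0.656 in subclone 2 (0.612 to 0.704), at percentiles 2.35 and 6.75. Divided by ACTB, the log2 ratio in subclone 1 went from -0.92 to -1.05 and so passed 2-fold. Subclone 2 was 1.24-fold above subclone 1 (1.15 to 1.35).

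The carrier and the receptors were at the edge of detection. SLCO2A1 had 1 read in the parent and 0 reads in the subclones, where a count of 0 allows up to 0.154 and 0.150 RPKM. PTGER4 had 1 read in the parent and 1 in subclone 2, or 0.0649 and 0.0617 RPKM, and 0 reads in subclone 1. PTGER2 was not listed, and with its longest transcript of 2383 bases a count of 0 allows up to 0.280 RPKM for the parent and 0.273 and 0.266 RPKM for the subclones. No difference between lines was detectable for these 3 genes at this depth.

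Ratios of RPKM within a library do not depend on how libraries are scaled to each other. HPGD stood 14.5 times above PTGS2 in the parent (12.6 to 16.8), 6.31 times in subclone 1 (5.52 to 7.24) and 6.25 times in subclone 2 (5.55 to 7.05). The subclones therefore had a lower ratio than the parent, by a factor of 0.436 in subclone 1 (0.357 to 0.531) and of 0.431 in subclone 2 (0.357 to 0.519). The ratio of HPGD to PTGES differed more, from 23.1 in the parent (17.6 to 30.9) to 3.19 (2.75 to 3.71) and 3.78 (3.28 to 4.37).

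The order of the synthetic enzymes also differed between parent and subclones. PTGES was 0.628 times PTGS2 in the parent (0.457 to 0.849), 1.98 times in subclone 1 (1.65 to 2.38) and 1.65 times in subclone 2 (1.39 to 1.96). PTGES was 0.298 times PTGES2 in the parent (0.217 to 0.403), and in the subclones both stood level within counting error at 0.911 (0.758 to 1.09) and 0.867 (0.728 to 1.03). PTGS2 and PLA2G4A were level in the parent at a ratio of 1.07 (0.860 to 1.34), against 1.62 (1.29 to 2.04) and 2.36 (1.88 to 3.00) in the subclones. PTGS2 exceeded PTGS1 by 40.9 times in the parent (18.5 to 112.6), 4.49 times in subclone 1 (3.43 to 5.94) and 8.19 times in subclone 2 (6.05 to 11.3). Per length, the order in the parent was PTGES3, HPGD, PTGES2, PTGS2, PLA2G4A, PTGES and PTGS1, and in both subclones PTGES moved up to stand between PTGES2 and PTGS2.

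**Figure D3:**
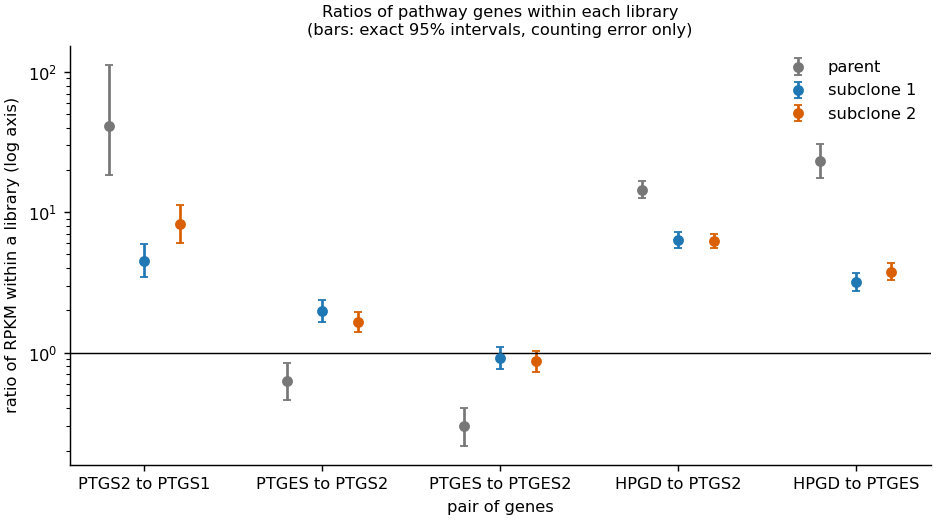
Ratios of RPKM between pairs of members within each library, on a log axis, with exact 95% intervals, for the parent, subclone 1 and subclone 2. HPGD to PTGS2 goes from 14.5 in the parent to 6.31 and 6.25 in the subclones, and PTGES to PTGS2 crosses 1, from 0.628 to 1.98 and 1.65.

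PTGS2 and PLA2G4A are neighbours on chromosome 1, 148.5 kb apart in GENCODE 29 with only the non-coding RNA gene PACERR between them. In subclone 2 they nevertheless differed in direction beyond counting error, with PTGS2 above and PLA2G4A below the parent. In subclone 1 the values lay the same way, but the interval of PLA2G4A (0.618 to 1.04) included 1. Of the 5 listed genes on the other side of PTGS2, TPR, a nuclear pore protein, had folds of 0.948 (0.866 to 1.04) and 0.864 (0.788 to 0.947), and C1orf27 (now ODR4) had 0.965 (0.801 to 1.16) and 1.09 (0.913 to 1.31). HMCN1, an extracellular matrix protein, was 2.94-fold (2.09 to 4.20) and 2.07-fold (1.44 to 3.00) higher than in the parent, from 46 reads. PDC and PRG4 had at most 3 reads. Beyond PLA2G4A, RGS2, a regulator of G protein signalling, had folds of 1.63 (1.36 to 1.97) and 1.21 (0.996 to 1.47). FAM5C, RGS1 and RGS13 had between 2 and 17 reads in a library. In subclone 1 their folds over the parent were 3.31 (1.17 to 11.5), 2.53 (0.847 to 9.07) and 7.30 (1.70 to 65.8), and in subclone 2 they were 2.09 (0.669 to 7.67), 0.570 (0.0885 to 2.93) and 3.32 (0.633 to 32.8). The strand setting of the read counting is not given in the sources used here, so reads of PTGS2 and of antisense RNA could not be told apart.

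In the plane of log2 ratios over the parent, 108 assessed genes lay within 0.1 of PTGS2. The nearest 5 over the 3 libraries were CPD (distance 0.011), METRNL (0.012), KBTBD7 (0.018), DCLRE1B (0.020) and JUB (0.029). Counting error is wider than these distances, so their order is not resolved. For KBTBD7, with 12, 15 and 20 reads, the fold in subclone 1 was 1.22 (0.532 to 2.85). CPD, a carboxypeptidase, went from 30.05 RPKM in the parent to 36.1 and 45.5 RPKM.

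**Figure D4:**
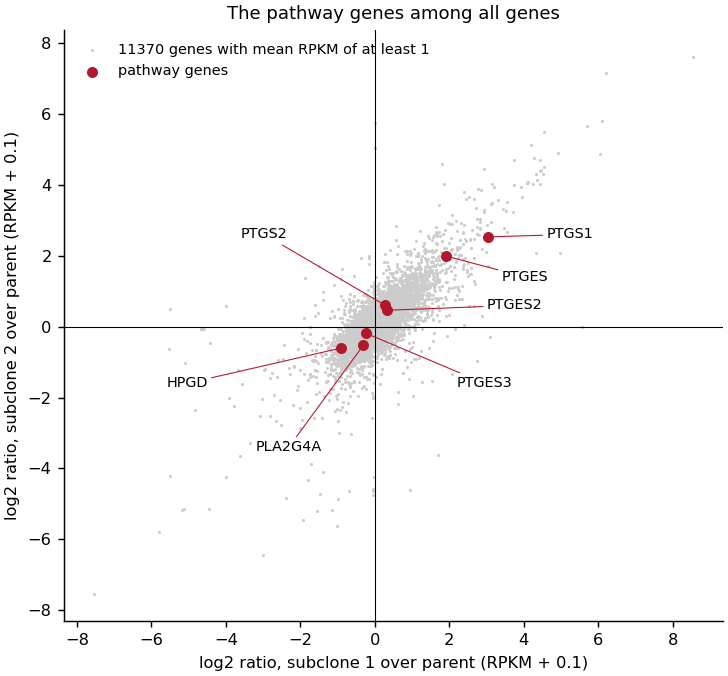
Log2 ratio of RPKM + 0.1 over the parent in subclone 1 (horizontal) and subclone 2 (vertical) for the 11370 assessed genes (grey) and the 7 assessed members (red). Both axes use the same parent library, which by itself draws points along the diagonal. PTGS1 and PTGES lie at the upper right and HPGD at the lower left, and PTGS2 lies inside the main cloud.

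The genes around the pathway were taken by list. Among all assessed genes, 4.9% were at least 2-fold higher and 1.82% lower in subclone 1, and 5.33% and 2.16% in subclone 2. These shares belong beside the counts of every pathway list below. Counts of 0 or 1 gene were not read as a result about a list. Of 11 other synthases and reductases of prostanoids, 9 were assessed, 1 was at least 2-fold higher in each subclone, and 0 and 1 were at least 2-fold lower in subclones 1 and 2. The higher gene was PTGIS, the prostacyclin synthase, with 4.61 RPKM in the parent (116 reads), 28.3 RPKM in subclone 1 (731 reads) and 14.6 RPKM in subclone 2 (387 reads). Relative to the parent the folds were 6.14 (5.04 to 7.53) and 3.17 (2.57 to 3.93), and subclone 2 had 0.516 times the level of subclone 1 (0.455 to 0.585). PTGIS uses the same prostaglandin H2 as PTGES. The lower gene was CBR3, a carbonyl reductase, with 10.3 RPKM in the parent (52 reads), 5.58 in subclone 1 (29 reads) and 2.06 in subclone 2 (11 reads). AKR1B1, an aldose reductase that can form prostaglandin F, had the highest mean level of the list, with 1008, 1285 and 1226 RPKM in the parent, subclone 1 and subclone 2. PTGR1, named after its values were seen because it reduces the product of HPGD, had 692.8, 856.8 and 870.3 RPKM, with folds of 1.24 (1.19 to 1.29) and 1.26 (1.21 to 1.31).

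Arachidonate release and prostaglandin transport came next. Of 17 other phospholipases A2 and genes of arachidonate release, 10 were assessed and 0 passed 2-fold in either direction. PLA2G4C, a cytosolic phospholipase A2 named after its values were seen, came near it, with folds over the parent of 1.96 (1.56 to 2.48) and 1.64 (1.30 to 2.09). ANXA1, an inhibitor of phospholipase A2 activity, was the most abundant with 467.0, 355.6 and 372.9 RPKM. Of 8 genes of prostaglandin export and uptake, 4 were assessed and 1 was at least 2-fold higher, in subclone 1 alone (4.9% of assessed genes). It was SLCO2B1, an organic anion carrier, with 6.74 RPKM in the parent against 18.2 RPKM in subclone 1 and 9.46 RPKM in subclone 2. It was also the most abundant of its list. Its fold was 2.70 (1.90 to 3.90) in subclone 1 and 1.403 (0.943 to 2.11) in subclone 2, and between the subclones 0.520 (0.379 to 0.708). These intervals rest on 44, 122 and 65 reads at a recovered length of 1454 bases, the smallest that gave whole reads. The true reads may be more, so the intervals may be too wide.

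**Figure D5:**
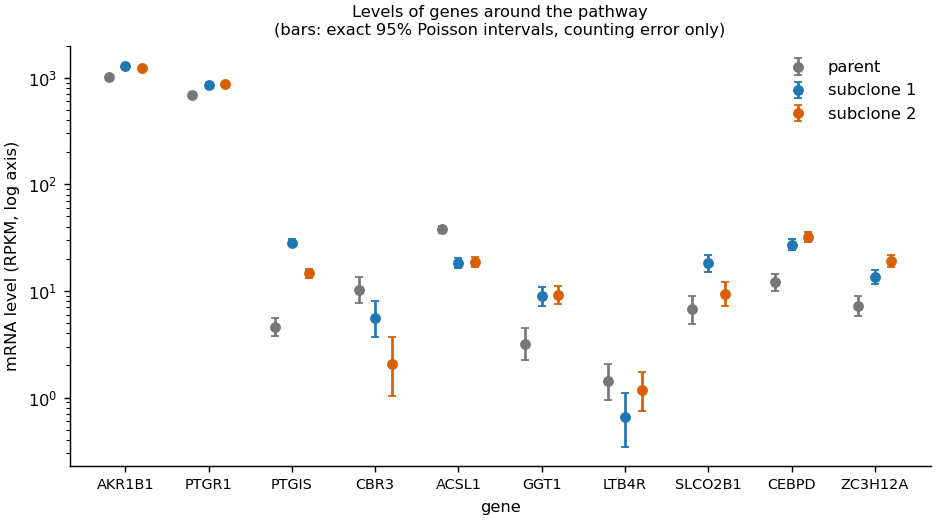
mRNA level in RPKM, on a log axis, of 10 genes around the pathway in the parent, subclone 1 and subclone 2, with exact 95% Poisson intervals. PTGIS goes from 4.61 RPKM in the parent to 28.3 and 14.6 RPKM, and CBR3 goes from 10.3 to 5.58 and 2.06 RPKM.

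Receptor mRNA was low, while mRNA of the listed signalling genes was present, which does not measure reception. Of 7 other prostanoid receptors, 3 were listed and 0 were assessed. Their most abundant was TBXA2R, with 1.02, 1.16 and 0.566 RPKM in the parent, subclone 1 and subclone 2. All 12 genes of EP2 and EP4 signalling were assessed and 0 passed 2-fold. The most abundant was GNAS, the stimulatory G protein subunit, with 149.5, 196.6 and 208.6 RPKM. Of 12 cyclic AMP response genes, 8 were assessed and 0 passed 2-fold, and their most abundant member AREG, an EGF receptor ligand, had 22.1, 21.9 and 26.2 RPKM. PDE4B, a cyclic AMP phosphodiesterase named after its values were seen, had 1.499 RPKM in the parent against 0.0508 and 0.442 RPKM. Its low levels in the subclones kept its mean under the minimum, so that it is not among the 8, and its reads could not be recovered for an interval.

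Factors that act on PTGS2 itself were also listed. Of 15 transcription factors, 14 were assessed and 1 was at least 2-fold higher in each subclone (4.9% and 5.33% of assessed genes). It was CEBPD, a C/EBP factor. CEBPD had 12.1 RPKM in the parent against 27.2 and 32.02 RPKM in the subclones, with folds of 2.24 (1.80 to 2.82) and 2.64 (2.13 to 3.30). USF2 was the most abundant of the list, with 61.2, 76.5 and 74.9 RPKM. EGR1, named after its values were seen for the letters in the PTGES window, had 21.8, 15.2 and 14.0 RPKM, folds of 0.698 (0.584 to 0.832) and 0.644 (0.537 to 0.770). Of 12 factors of mRNA stability, 11 were assessed and 1 was at least 2-fold higher, in subclone 2 (5.33% of assessed genes). It was ZC3H12A, a ribonuclease that degrades inflammatory mRNAs, with 7.24, 13.6 and 19.0 RPKM and folds of 1.87 (1.44 to 2.45) and 2.63 (2.05 to 3.39). HNRNPD, an RNA-binding protein, was the most abundant with 132.3, 116.1 and 121.3 RPKM.

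The label of liver cancer cells was compared with markers. HNF4A, a hepatocyte transcription factor, had 11.7, 11.9 and 16.01 RPKM, and ALB, albumin, had 2.46, 49.5 and 68.8 RPKM, whereas APOA1, TTR and SERPINA1 had at most 4 reads in a library. The summed level of the 8 hepatocyte markers, all listed, was 18.8 RPKM in the parent against 82.2 and 99.8 RPKM in the subclones. Markers of other cell types also differed between the lines. The sum over 9 fibroblast markers, 6 of them listed, was 15.7, 31.2 and 24.3 RPKM. It was mostly LUM, and COL3A1 ran the other way with 4.42, 2.21 and 0.463 RPKM, while PDGFRA, PDGFRB and ACTA2 were not listed and COL1A2 had at most 1 read. The sum over 6 endothelial markers, 5 of them listed, was 5.11, 11.9 and 7.60 RPKM, with CDH5 at most at 1 read. It was mostly PECAM1 with 3.33, 9.81 and 4.46 RPKM and KDR with 1.36, 1.93 and 3.08 RPKM. PECAM1 was highest in subclone 1 and KDR in subclone 2. Of 8 leukocyte markers, 7 were listed, and their sum of 77.2, 117.2 and 102.7 RPKM was mostly CD68, with PTPRC at 1, 0 and 0 reads. The part of these markers in the levels of PTGES and PTGS1 was not tested.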

How the data were processed

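Cultured cells were extracted with Trizol and made into Illumina TruSeq RNA libraries, per the labels. The authors deposited RPKM values by Entrez number and symbol. The submitters' processing notes name the build hg19, while the aligner, counting tool, annotation and strand setting are not given in the sources used here. Genes missing from a file were set to 0. Ratios were log2 of RPKM + 0.1, which understates changes of low genes, and folds were ratios of RPKM. Genes with a mean of at least 1 RPKM were set against a 2-fold limit. No p-value was computed.

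Library totals and whole reads were recovered from the RPKM, from the steps between low values. Of 2653 low genes, 89.4% fell within 0.02 of a whole step, and of 1970 genes 80.8% had a length within 10% of a GENCODE 29 transcript. The length taken could be the smallest that gave whole reads. Where the reads of a gene share a divisor, the recovered reads can then be too few and the intervals too wide. Intervals are Poisson for levels, Clopper-Pearson for folds, and conditional exact for ratios of ratios. A count of 0 allows 3 reads.

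The members and lists were chosen with earlier results of these data known. The text names the members, the 5 genes most like PTGS2, 5 listed neighbours on each side, and of each list the genes past 2-fold and the most abundant. List symbols were matched by Entrez number, which changed 1 name. Alternatives were the pseudocount, scaling, level minimum and fold limit. Python 3.11.15, numpy 2.4.6, pandas 2.3.3, scipy 1.17.1 and matplotlib 3.10.9 were used.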

Additional observations from a re-analysis of the deposited data

How the results depend on the processing

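Of 105 log2 ratios of members under other pseudocounts and scalings, 99 lay within the counting interval of the reported value and 0 changed sign. With a pseudocount of 1, PTGS1 had 1.63 in subclone 1 and 1.25 in subclone 2 over the parent. Divided by ACTB, PTGES3 had -0.38 and HPGD -1.05 in subclone 1 over the parent, and 0.19 and 0.44 in subclone 2 over subclone 1, so that 1 member was at least 2-fold lower in subclone 1. With a mean of at least 5 RPKM, 1 member was at least 2-fold higher in each subclone, and the member medians were 0.013 and 0.14. With no minimum they were -0.25 and -0.029, because 2 genes with 1 read then enter. At 1.5-fold, 1 member was lower in each subclone. For all genes, the counts higher and lower were 557 and 207 in subclone 1 over the parent, 606 and 246 in subclone 2 over the parent, and 161 and 158 between the subclones. With a pseudocount of 1 they were 347 and 117, 380 and 150, and 80 and 77. Without a minimum they were 1523 and 884, 1553 and 941, and 842 and 902. From 5 RPKM they were 233 and 71, 253 and 93, and 43 and 46. A limit of 1.5-fold gave 1317 and 848, 1444 and 830, and 540 and 467. Divided by ACTB, 328 genes were lower in subclone 1. No paired analysis was possible because each line has 1 library, and no library could be left out. PTGS1 in the parent rests on 6 reads, and SLCO2A1 and PTGER4 had at most 1 read in a library.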

Other observations

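Arachidonic acid that does not reach the cyclooxygenases is re-esterified or passes to the lipoxygenases. Of 9 genes of re-esterification, 8 were assessed and 1 was at least 2-fold lower in each subclone (1.82% and 2.16% of assessed genes). It was ACSL1, a long-chain acyl-CoA synthetase, with 38.004 RPKM in the parent (652 reads), 18.4 in subclone 1 (325 reads) and 18.6 in subclone 2 (336 reads). Its folds were 0.485 (0.424 to 0.555) and 0.490 (0.428 to 0.559). MBOAT7, an acyltransferase for phosphatidylinositol, had the highest mean level of the list, with 80.2, 86.9 and 69.6 RPKM.

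Of 17 genes of the lipoxygenase branch, 5 were assessed. Past 2-fold, 1 was higher in each subclone (4.9% and 5.33% of assessed genes) and 1 lower in subclone 1 (1.82%). GGT1, which trims glutathione conjugates such as leukotriene C, was at least 2-fold higher in each subclone, with 3.21, 8.92 and 9.23 RPKM and folds of 2.78 (1.88 to 4.21) and 2.88 (1.95 to 4.35). LTB4R, a leukotriene B receptor, was at least 2-fold lower in subclone 1, where the fold was 0.452 (0.215 to 0.902) from 28 and 13 reads. LTA4H, the leukotriene A hydrolase, was the most abundant with 44.9, 61.1 and 57.9 RPKM.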
